A study of Arabidopsis thaliana with 8 samples.

Results

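BIC1 (AT3G52740) and BIC2 (AT3G44450), the blue-light inhibitors of cryptochromes of Arabidopsis thaliana, are 2 of the 13286 genes that the platform annotation paired with a probe set of their own on the ATH1 array. Both lie on chromosome 3. Each was read by 1 probe set, and both were among the 13648 bright enough to be tested, by their mean over the 8 arrays. BIC1, with a mean of 103 on the cold arrays and 5.87 on the warm ones, passed that filter only through the cold. The pair was chosen with their signals on all 8 arrays already known, so their levels and differences are described here and carry no test.

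Cryptochromes are blue-light receptors that pair up when they absorb light, are phosphorylated, and then act on transcription factors and on the COP1-SPA ubiquitin ligase, which otherwise removes light-signal factors such as HY5. The BIC proteins bind cryptochromes and block this pairing. BIC transcription is itself raised by light through cryptochromes and phytochromes, with HY5 acting at the BIC genes, so that the inhibitors are part of a negative feedback on blue-light signalling in leaves.

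Above-ground tissue was hybridised to 8 arrays in 4 groups of 2: sfr3 cold, sfr3 warm, wild type cold and wild type warm. Wild type was Col-0, and sfr3, a mutant sensitive to freezing, came from ethyl methanesulfonate (EMS) mutagenesis of Col-0. Seeds spent 48 h at 4 °C, and the plants of every group then grew for 38 days in short days (8 h light, 16 h dark) at 20 °C and a humidity of 70%, up to growth stage 1.14. The sources used here do not give the temperature or length of the cold exposure, the hour of harvest, or whether light differed between cold and warm plants. The labels name aerial parts for sfr3 and the entire rosette for wild type, so tissue and genotype cannot be told apart. The sfr3-1 lesion is known to lie in ACC1, which the annotation paired with no probe set, so the genotype labels could not be checked on it.

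One array stood apart. Its median signal, on sfr3 cold replicate 1, was 52.5, against 36.6 to 39.0 on the other 7 arrays, and its background level, taken at the 95th percentile of its 27 bacterial controls, was 35.4 against 6.37 to 11.3. Over its 18 hybridisation controls, the median ratio to the median of the other 7 arrays was 5.75. The values of BIC1, BIC2 and the called pathway genes that include this array are given with and without it where a fold or log2 difference is stated. Of the marker genes for leaf, the annotation paired 4 of 7 with a probe set and their summed signal was 18892 to 21427 in sfr3 cold, 19994 to 21389 in sfr3 warm, 16733 to 17372 in wild type cold and 19019.5 to 24888 in wild type warm. For root, 2 of 6 were paired with one, with sums of 65.1 to 205, 205 to 208, 54.0 to 57.3 and 151 to 208 in the same groups, and EXPA7 was not above background in sfr3 warm. The 1 of 2 senescence markers with a paired probe set, WRKY53, had 9.11 to 48.1, 92.2 to 111, 27.2 to 33.3 and 156 to 202. None of the 5 flower markers was paired with a probe set. The 2 root markers differed in opposite ways, with PYK10 at 76.0 ± 50.9 in sfr3 cold against 201 ± 1.95 in sfr3 warm and 30.3 ± 2.08 in wild type cold against 164 ± 45.1 in wild type warm, and EXPA7 at 59.2 ± 48.2 against 5.87 ± 0.628 and 25.4 ± 0.243 against 15.7 ± 4.57 in the same pairs (SD, n = 2 each). The senescence marker was lower in the cold in both genotypes, without overlap. The summed leaf markers were lower in the cold in wild type, also without overlap. Single leaf markers did not all move alike. In sfr3, RCA had 8302 and 7433 in the cold, against 6146 and 6987 in the warm. There LHCB4.1 had 7702 and 9165 against 7009.8 and 7347, LHCB4.2 had 2687 and 4752 against 6616 and 6865, and LHCB4.3 overlapped. In wild type, RCA, LHCB4.2 and LHCB4.3 were lower in the cold without overlap, and LHCB4.1 overlapped. The part of these markers in the results below was not tested. In tissue of mixed cells, fewer cells of a type and less RNA per cell cannot be told apart.

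BIC1 was bright in the cold and at or near background in the warm. Its signal, in MAS5 units on a linear scale, was 177 and 91.5 in sfr3 cold, against 1.11 and 6.74 in sfr3 warm. In wild type it was 70.9 and 73.6 in the cold, against 8.34 and 7.29 in the warm. All 4 cold arrays lay above all 4 warm arrays, and the lowest cold signal was 8.5 times the highest warm signal.

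Set against the bacterial controls of its own array, BIC1 was 4.99 and 9.81 times the background level in sfr3 cold, against 0.115 and 0.868 times in sfr3 warm. In wild type it was 8.66 and 8.59 times the level in the cold, against 1.31 and 0.644 times in the warm. BIC1 was therefore above background on 5 of the 8 arrays, the 4 cold arrays and wild type warm replicate 1, and in sfr3 warm there was only an upper bound on its signal.

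BIC2 was above background on all 8 arrays and also brighter in the cold. Its signal was 483 and 522 in sfr3 cold, against 76.6 and 76.5 in sfr3 warm. In wild type it was 542 and 561 in the cold, against 54.3 and 68.4 in the warm. No cold array overlapped a warm one, and the lowest cold signal was 6.31 times the highest warm signal. BIC2 was 13.6 and 56.0 times the background level in sfr3 cold, against 7.94 and 9.85 times in sfr3 warm, and 66.3 and 65.5 times in wild type cold, against 8.52 and 6.04 times in wild type warm. The low first value comes with the high background of sfr3 cold replicate 1, whose BIC2 signal itself was close to that of its replicate.

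For comparison, 2903 of all tested probe sets, or 21.3%, also had all 4 cold arrays above all 4 warm arrays. Since both genes were chosen on these signals, nothing is read from their belonging to that share.

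**Figure D1:**
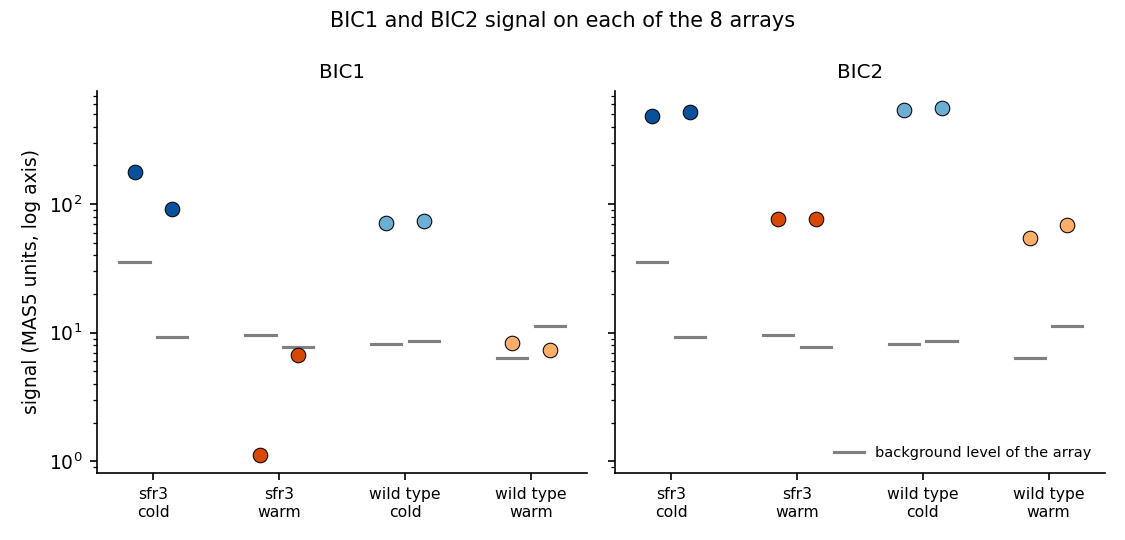
Signal of BIC1 and BIC2 in MAS5 units on a log axis, with 1 point per array in the 4 groups and a grey bar for the background level of the same array. BIC1 lies between 70.9 and 177 on the cold arrays and between 1.11 and 8.34 on the warm ones, where 3 of its 4 points are under the bar, while BIC2 is above the bar on every array.

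The order of the group means differed between the genes. For BIC1 it was sfr3 cold at 134 ± 60.5, wild type cold at 72.2 ± 1.94, wild type warm at 7.81 ± 0.741 and sfr3 warm at 3.92 ± 3.98 (SD, n = 2 each). The 2 cold groups did not overlap, but the step between their means was about the size of the SD in sfr3 cold and the nearest arrays were 17.9 apart. The nearest arrays of the 2 warm groups were 0.548 apart, at or near background. For BIC2 the order was wild type cold at 551 ± 13.3, sfr3 cold at 503 ± 27.7, sfr3 warm at 76.5 ± 0.0658 and wild type warm at 61.3 ± 9.99 (SD, n = 2 each). Neither neighbouring pair of the same temperature was far apart: the gap between the lower wild type and the higher sfr3 array was 19.8 in the cold, and that between the lower sfr3 and the higher wild type array was 8.12 in the warm. The large step in both genes was the one between cold and warm.

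Replicates agreed unequally. The 2 BIC1 signals of sfr3 cold differed 1.93-fold and those of sfr3 warm 6.09-fold, against 1.04-fold in wild type cold and 1.14-fold in wild type warm. On the log2 scale these differences were 0.94, 1.44, 0.05 and 0.15, where the median over all tested probe sets was 0.55 in sfr3 cold, 0.23 in sfr3 warm, 0.18 in wild type cold and 0.21 in wild type warm. The 6.09-fold gap in sfr3 warm is one between signals that were both under background. BIC2 replicates differed 1.08-fold, 1.00-fold, 1.03-fold and 1.26-fold in the same order of groups.

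As a ratio of geometric mean signals, BIC1 of cold sfr3 exceeded that of warm sfr3 at least 14.7-fold, a bound set by the geometric mean of the background levels of the warm arrays, and at least 10.6-fold higher without sfr3 cold replicate 1. In wild type BIC1 was 9.27-fold higher in the cold, with 1 of the 2 warm arrays above background. BIC2 was 6.56-fold higher in the cold in sfr3, or 6.82-fold without that array, and 9.05-fold higher in wild type.

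The log2(signal + 2.17) scale used for all probe sets shrinks ratios between dim signals. On it the difference between cold and warm for BIC1 was 4.58 ± 0.62 in sfr3 and 2.90 ± 0.62 in wild type (SE of the limma fit over all 8 arrays). Without sfr3 cold replicate 1 the sfr3 value was 4.12. For BIC2 the difference was 2.68 ± 0.19 in sfr3, or 2.74 without that array, and 3.13 ± 0.19 in wild type. The middle 90% of all tested probe sets ran from -1.92 to 1.61 in sfr3 and from -1.74 to 1.40 in wild type. The BIC1 value in sfr3 rests on warm signals under background, so it is no bound, and it depends on the pseudocount. It was 2.87 with a pseudocount of 16, and 3.86 and 5.31 without sfr3 warm replicates 1 and 2.

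**Figure D2:**
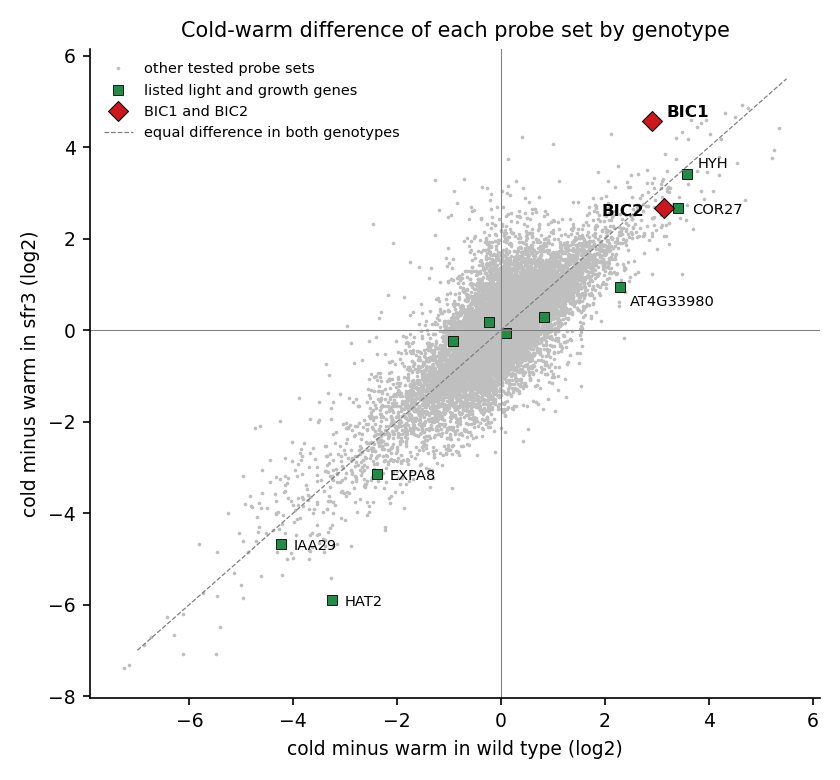
Difference between cold and warm on the log2 scale in sfr3 (vertical axis) and in wild type (horizontal axis), with 1 point per tested probe set; red diamonds are BIC1 and BIC2, green squares the 10 listed light and growth genes, and the dashed line marks equal differences. BIC1 lies above the line at 4.58 in sfr3 and 2.90 in wild type, and BIC2 just under it at 2.68 in sfr3 and 3.13 in wild type.

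Between genotypes the members differed little beside the temperature step. In the cold, the geometric mean BIC1 signal of sfr3 was 1.76 times that of wild type, but 1.27 times without sfr3 cold replicate 1. The log2 difference was 0.80 ± 0.62, or 0.33 without that array. BIC2 in the cold was 0.911 times the wild type geometric mean in sfr3, or 0.947 times without that array, with a log2 difference of -0.13 ± 0.19, or -0.08 without it. In the warm, BIC1 was at or near background in both genotypes and no ratio is given (log2 difference -0.88 ± 0.62), and BIC2 was 1.26 times the wild type geometric mean in sfr3 (0.32 ± 0.19). For both genes the arrays of the genotypes did not overlap at either temperature, as was the case for 41.9% of tested probe sets in the cold and 30.8% in the warm.

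The difference of the cold responses, sfr3 minus wild type, was 1.68 ± 0.87 for BIC1 and -0.45 ± 0.27 for BIC2 on the log2 scale. Without sfr3 cold replicate 1 these were 1.22 and -0.40, and the middle 90% of all probe sets ran from -1.01 to 1.19. The BIC1 value rests on sfr3 warm signals under background: it was 0.96 without sfr3 warm replicate 1 and 2.41 without sfr3 warm replicate 2. When each array was centred on its median the values were 1.37 for BIC1 and -0.76 for BIC2. That centring shifted the median of all probe sets by -0.24 for cold against warm in sfr3, by -0.25 for sfr3 against wild type in the cold and by -0.31 for this difference of responses.

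The rest of the light pathway could be read only in part, because the annotation paired 10 of the 89 genes on 7 lists with a probe set of their own. None of the 8 blue-light receptors and none of the 8 phytochrome and UVR8 pathway genes was paired with one. Of the other lists, 3 of 13 cryptochrome kinases, turnover factors and partners, 2 of 7 genes on the COP1-SPA list (COR27 and AT4G33980), 1 of 26 light-signal transcription factors, 1 of 15 light-induced targets and 3 of 12 growth genes were. The annotation paired 8730 probe sets with no gene, so the array may still carry probe sets for the others. All 10 were tested with limma. In sfr3, 5 of the 10 differed between cold and warm at an adjusted p under 0.05, 2 higher and 3 lower in the cold, where 31.2% of all tested probe sets were called, 14.9% higher and 16.4% lower. In wild type, 7 of the 10 were called, 3 higher and 4 lower, where 26.3% of all were called, 13% higher and 13.3% lower. The lists were chosen with earlier results of these data known, so nothing about the light pathway is read from counts of the 10. Without sfr3 cold replicate 1 the counts of the 10 were again 5 in sfr3 and 7 in wild type, with 5230 and 6206 of all probe sets called in sfr3 and wild type, against 4261 and 3594 with all arrays. In sfr3 the count over all probe sets was 7981 without sfr3 cold replicate 2, 2027 without sfr3 warm replicate 1 and 2180 without sfr3 warm replicate 2. The corresponding wild type count was 6191 without sfr3 cold replicate 2, 1754 and 1500 without wild type cold replicates 1 and 2, and 1646 and 1917 without wild type warm replicates 1 and 2. The wild type count of the 10 was 4 without wild type cold replicate 2. The median log2 difference of the 10 was 0.07 in sfr3 and -0.07 in wild type, against 0.06 and 0.00 over all probe sets in sfr3 and wild type.

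Among the transcription factors, HYH, a bZIP factor closely related to HY5, rose in the cold. Its signal was 69.9 and 93.7 in sfr3 cold, against 2.88 and 9.82 in sfr3 warm. In wild type it was 84.0 and 78.1 in the cold, against 10.9 and 1.52 in the warm. Like BIC1, HYH was near background in the warm, where 1 of 2 arrays was above it in each genotype. HYH too passed the filter on mean signal only through its cold arrays. Its means were 81.8 and 81.0 in sfr3 and wild type cold, against 6.35 and 6.19 in the warm. The log2 difference was 3.42 ± 0.73 in sfr3 (limma adjusted p = 0.00769) and 3.59 ± 0.73 in wild type (limma adjusted p = 0.00656), and 3.62 in sfr3 without sfr3 cold replicate 1. The call rested on single arrays: the limma adjusted p was 0.0595 in sfr3 without sfr3 warm replicate 1, and in wild type 0.0732 without cold replicate 1 and 0.0729 without cold replicate 2.

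COR27, a cold-regulated gene whose protein works in the clock and with the COP1-SPA complex, had 302 and 252 in sfr3 cold, against 42.9 and 40 in sfr3 warm. In wild type it had 316 and 355 in the cold, against 34.6 and 25.6 in the warm. Its signals rose in the cold in both genotypes with no overlap. The ratio of geometric means was 6.65 in sfr3, or 6.08 without sfr3 cold replicate 1, and 11.3 in wild type, with log2 differences of 2.67 ± 0.23 (limma adjusted p = 7.61e-05) in sfr3, or 2.54 without that array, and 3.40 ± 0.23 (limma adjusted p = 2.47e-05) in wild type. The other measured gene of that list, AT4G33980, had 74.3 and 51.4 in sfr3 cold, against 35.5 and 26.8 in sfr3 warm, and 77.0 and 142 in wild type cold, against 20.4 and 18.9 in wild type warm. It rose in wild type by a log2 difference of 2.29 ± 0.39 (limma adjusted p = 0.00258), while in sfr3 the value was 0.95 ± 0.39 (limma adjusted p = 0.09), or 0.70 without sfr3 cold replicate 1 (limma adjusted p = 0.171). The wild type call was not kept without wild type cold replicate 2 (limma adjusted p = 0.0564). The difference between the 2 responses was -1.34 ± 0.55 and did not pass (limma adjusted p = 0.733; -1.59 and 0.312 without that array).

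Of the measured cryptochrome kinase list, AT3G13670 and AT5G18190 passed in no comparison, with log2 differences between cold and warm from -0.23 to 0.19. AT2G25760 fell in the cold in wild type, with 61.6 and 63.1 in the cold, against 113 and 129 in the warm. Its log2 difference there was -0.93 ± 0.22 (limma adjusted p = 0.0147), and -0.24 ± 0.22 in sfr3 (limma adjusted p = 0.434), or -0.30 without sfr3 cold replicate 1. The call was lost without any one of the 4 wild type arrays, with limma adjusted p-values of 0.0674 to 0.112. A second probe set of the gene gave -0.34 ± 0.48 in wild type (limma adjusted p = 0.673). In sfr3 that probe set went the other way, at 0.84 ± 0.48 (limma adjusted p = 0.201), or 0.38 without sfr3 cold replicate 1. DFR, an anthocyanin synthesis enzyme and the only measured light-induced target, had log2 differences of 0.29 ± 0.38 in sfr3 (limma adjusted p = 0.582) and 0.82 ± 0.38 in wild type (limma adjusted p = 0.15).

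The 3 measured growth genes, of 12 listed, all fell in the cold, opposite in direction to the 2 inhibitors. Over all tested probe sets, 16.4% were called lower in the cold in sfr3 and 13.3% in wild type. A relation between these genes and the inhibitors was not tested. HAT2, an auxin-responsive homeodomain factor, had 6.31 and 6.15 in sfr3 cold, against 451 and 552 in sfr3 warm. In wild type it had 50.6 and 41.7 in the cold, against 485 and 428 in the warm. HAT2 was not above background in sfr3 cold, while both wild type cold arrays were above it. In geometric means it was at least 27.4-fold lower in the cold in sfr3 (at least 53.5-fold without sfr3 cold replicate 1, whose background was high; limma adjusted p = 3.03e-06), and 9.9-fold lower in wild type (limma adjusted p = 2.7e-05).

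IAA29, an Aux/IAA repressor of auxin responses, had 10.3 and 13.4 in sfr3 cold, against 359 and 349.7 in sfr3 warm, and 18.4 and 14.0 in wild type cold, against 279 and 414 in wild type warm. It fell by 4.68 on the log2 scale in sfr3 (limma adjusted p = 1.45e-05), fell by 4.52 without sfr3 cold replicate 1, and fell by 4.23 in wild type (limma adjusted p = 2.38e-05). On that array its signal was under background. EXPA8, an expansin that loosens cell walls, had 22.2 and 44.7 in sfr3 cold, against 276 and 315 in sfr3 warm, and 44.9 and 62.6 in wild type cold, against 254 and 321 in wild type warm. It fell by 3.14 in sfr3 (limma adjusted p = 0.0002), and fell by 2.66 without sfr3 cold replicate 1, where it was also under background, and it fell by 2.38 in wild type (limma adjusted p = 0.00087).

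**Figure D3:**
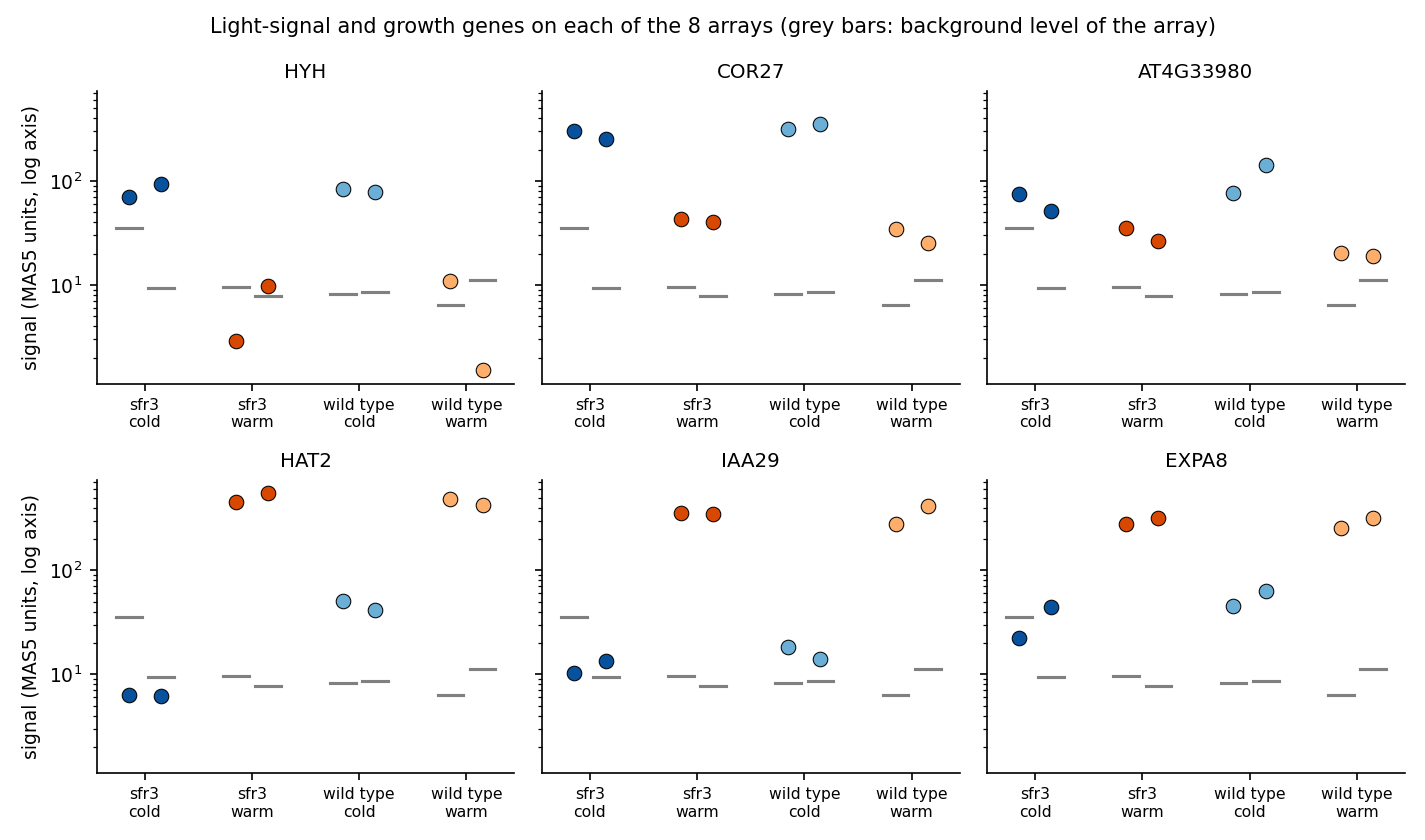
Signal in MAS5 units on a log axis for 6 of the 7 listed genes called between cold and warm in wild type, with 1 point per array and a grey bar for the background level of that array. HYH, COR27 and AT4G33980 are brighter on the cold arrays of both genotypes, and HAT2, IAA29 and EXPA8 dimmer, with HAT2 at 6.31 and 6.15 in sfr3 cold.

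Between genotypes, 1 of the 10 pathway genes was called in the cold, where 0.125% of all probe sets were. That background count was 17, and it was 106 without sfr3 cold replicate 1, 5372 without sfr3 cold replicate 2, 6 without wild type cold replicate 1, 7 without wild type cold replicate 2 and 11 or 12 without any one warm array. The called gene was HAT2, lower in sfr3 by a log2 difference of -2.52 ± 0.23 (limma adjusted p = 0.00246), or -2.53 without sfr3 cold replicate 1. In geometric means it was at least 2.53-fold lower, and at least 4.92-fold lower without that array. The call was lost without wild type cold replicate 1 (limma adjusted p = 0.0643) and in a fit of the cold groups alone (limma adjusted p = 0.709). In the warm no pathway gene and 0% of all probe sets were called by limma, with 102 probe sets and no pathway gene under an unadjusted p of 0.05, and 1 probe set called in a fit of the warm groups alone. For the difference of the responses, 1 of the 10 was called, again HAT2, where 0.0366% of all probe sets were. That background count was 5, and it was 16 without sfr3 cold replicate 1, 3802 without sfr3 cold replicate 2 and 0 to 2 without any one of the other arrays. The HAT2 value was -2.65 ± 0.32 (limma adjusted p = 0.0416), and the call was kept without either sfr3 cold array and lost without any one array of the other 3 groups, with a range of limma adjusted p from 0.000228 to 0.444 over 16 alternatives.

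Across the 7243 other named and tested genes, likeness to each member was taken as the root mean square distance between log2 profiles over the 8 arrays, each centred on its own mean. This is a description of 8 arrays that share their hybridisation and scaling, and it says nothing of shared function or control. The 5 genes nearest to BIC1 were AT1G17665 (0.54), AT2G23910 (0.54), AT3G22240 (0.57), COR15A (0.63) and AT3G53980 (0.63), against a median distance of 1.96 to all genes. AT1G17665 ranked 1 with all arrays but 8 without sfr3 cold replicate 1. Its mean signal was 63.6 ± 30.9 in sfr3 cold, 1.28 ± 0.396 in sfr3 warm, 49.9 ± 5.59 in wild type cold and 2.19 ± 1.04 in wild type warm (SD, n = 2 each), with both warm groups under background. COR15A, which encodes a chloroplast protein that protects membranes during freezing, had 10556 ± 69.3, 784 ± 25.2, 7879 ± 648 and 796 ± 328 in the same groups. HYH was the 13th nearest gene to BIC1 at a distance of 0.72, COR27 the 24th, and BIC2 the 26th at 0.82.

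BIC2 had closer neighbours. The 5 nearest were AT1G32860 (0.19), LTI30 (0.20), AT1G51090 (0.22), COR27 (0.23) and COR15B (0.24), against a median of 1.48. LTI30, a dehydrin, had 6503 ± 300.3 in sfr3 cold, 804 ± 49.5 in sfr3 warm, 5091 ± 303 in wild type cold and 713 ± 50.5 in wild type warm (SD, n = 2 each). COR15B, the neighbouring relative of COR15A, had 3883 ± 27.1, 528 ± 74.4, 3232 ± 591 and 517 ± 185 in the same groups. The nearest genes of both members include known cold-induced genes. Likeness was taken on the signals by which the pair was chosen, and their largest step was between cold and warm. Genes high in the cold were therefore bound to come out near, and nothing is read from their presence. BIC1 was only the 269th nearest gene to BIC2. The lists depend on the measure and on 1 array: without sfr3 cold replicate 1, 1 of the 5 remained for BIC1 and 3 of the 5 for BIC2, and with Pearson's correlation as the measure none of the 5 remained for either.

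**Figure D4:**
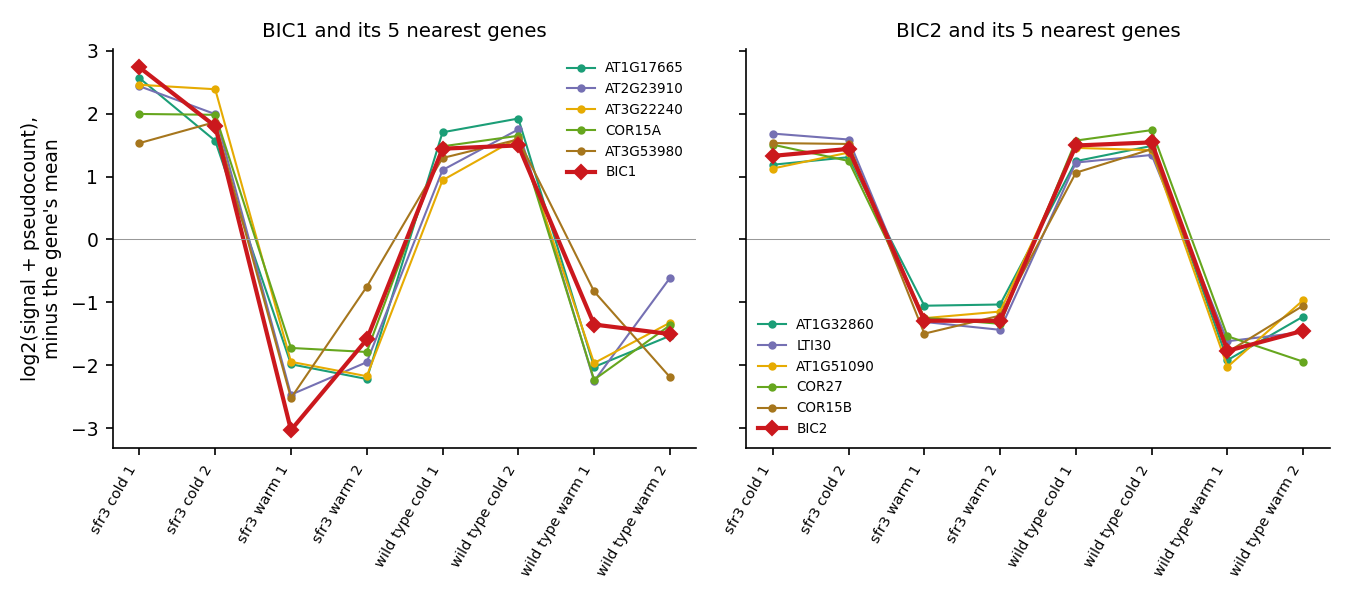
Profiles over the 8 arrays of BIC1 (left) and BIC2 (right) in red and of the 5 nearest genes of each, as log2(signal + 2.17) minus the gene's own mean. All profiles are high on the cold arrays and low on the warm ones; the BIC2 set lies within a distance of 0.24 of BIC2, and the BIC1 set between 0.54 and 0.63 of BIC1.

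The genes beside the members on chromosome 3, taken by position after their values were seen and ordered by the TAIR10.1 gene table, showed smaller differences. AT3G52730, next to BIC1 on one side, rose in the cold in wild type by a log2 difference of 0.97 (limma adjusted p = 0.0131), with 0.41 in sfr3 (limma adjusted p = 0.199). FTSZ2-2, a plastid division gene next to BIC1 on the other side, rose by 0.71 in sfr3 (limma adjusted p = 0.0431) and by 0.92 in wild type (limma adjusted p = 0.0169). AT3G44440, next to BIC2, had 1.31 in sfr3 (limma adjusted p = 0.113) and 0.43 in wild type (limma adjusted p = 0.657). AT3G44430, 3 genes from BIC2, had 0.90 in sfr3 (limma adjusted p = 0.278) and 1.76 in wild type (limma adjusted p = 0.0609). AT3G52710 and AT3G52760, near BIC1, had -0.27 to 0.08. AT3G44510, 5 genes away on the other side of BIC2, was not tested. The sfr3 values include sfr3 cold replicate 1. All the tested differences were smaller than those of the nearer member in both genotypes. Promoter sequences and motifs of BIC1 and BIC2 were not analysed here.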

How the data were processed

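RNA from 8 samples was hybridised to 1 array each. The deposited values are linear MAS5 signals, an intensity unit; the tools MAS5 and GCOS appear per the submitters' processing notes with no version, and the sources used here do not say how mismatch probes were treated. The 2% trimmed mean of every array was 100. Leaving out 64 control probe sets kept 22746 of 22810; the 60% with the highest mean signal (at least 26.7) were tested, 13648 in all. The platform annotation paired 13513 probe sets with 1 gene, 503 with several and 8730 with none, and symbols came from the TAIR10.1 gene table, which gives BIC1 and BIC2 by locus only. Where a gene had several probe sets, the brightest on average stood for it.

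Values were taken as log2(signal + 2.17), the pseudocount being the 10th percentile of the table. Group means were fitted over all 8 arrays with limma 3.58.1 (R 4.3.3; empirical Bayes with intensity trend); p-values were two-sided, with Benjamini-Hochberg adjustment over all tested probe sets, and a call needed an adjusted p under 0.05. The computation was tested on simulated data with far fewer changed probe sets than were called here, which checks the code and not the calls. A gene was not above background in a group when both arrays were no brighter than the 95th percentile of the 27 bacterial controls; a fold against such a group is a bound, taken from the geometric mean over its arrays of that level or of the gene's own signal where higher. Folds are ratios of geometric means of the signals, and means ± SD are arithmetic. Nothing in the labels says that replicates came from separate plants, so p-values then reflect only the spread of these samples, possibly technical, and the number of arrays limits the precision.

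Named genes were both members, every pathway gene called in any comparison, with the others by range, and the 5 nearest genes of each member. The members, lists and tests were chosen with earlier results of these data known. Alternatives covered the pseudocount, filter, scaling, trend, replicate block, groups fitted, background level and each array left out. Same-numbered replicates did not deviate together (correlations of -0.0867 to 0.0525), so the numbers were not taken as pairs.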

Additional observations from a re-analysis of the deposited data

Results flagged for a closer look

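HAT2, a growth gene of the light and auxin pathway, was singled out because its cold response differed between the genotypes by a test of the difference itself. The response in sfr3 minus that in wild type was -2.65 ± 0.32 on the log2 scale (limma adjusted p = 0.0416), or -2.66 without sfr3 cold replicate 1. HAT2 was not above background in sfr3 cold, so this value depends on the pseudocount and is no bound. Of 16 alternatives, 4 kept the call, and the limma adjusted p ranged from 0.000228 to 0.444.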

How the results depend on the processing

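Members' values kept their direction except BIC2 in sfr3 against wild type in the cold, which was 0.01 under quantile normalization and -0.39 under median centring. With a pseudocount of 16, BIC1 differed between cold and warm by 2.87 in sfr3 and 1.89 in wild type, by -0.27 between genotypes in the warm and by 0.98 in the difference of responses, and BIC2 by 2.49 in sfr3 and 2.88 in wild type. Median centring gave BIC2 2.44 in sfr3 and -0.76 for the difference of responses, and quantile normalization gave BIC2 -0.32 for that difference. Leaving out 1 array at a time gave BIC1 3.86 to 5.31 in sfr3, -1.61 to -0.16 between genotypes in the warm and 0.96 to 2.41 for the difference of responses, and BIC2 2.97 to 3.29 in wild type, 0.16 to 0.48 between genotypes in the warm and -0.61 to -0.29 for the difference of responses. Against the median bacterial control, BIC1 was at or under background in 0 groups, against 1. Of the nearest genes, 1 for BIC1 and 3 for BIC2 remained without sfr3 cold replicate 1, and 0 for either with Pearson's correlation. Pathway genes called between cold and warm in wild type numbered 4 to 7 with 1 array left out, 4 without wild type cold replicate 2. Between genotypes in the cold the count was 0 in a fit of the groups compared only and 0 to 3 with 1 array left out, 0 without wild type cold replicate 1 and 3 without sfr3 cold replicate 2. For the difference of responses it was 0 with a pseudocount of 16, no filter, median centring, quantile normalization, no intensity trend and the replicate block, and 0 to 2 with 1 array left out: 2 without sfr3 cold replicate 2 and 0 without any one array of the other 3 groups. The replicate block left the other counts of pathway genes at their reported values. The causes were not tested. Median centring left 1043 higher and 2331 lower calls over all probe sets for cold against warm in sfr3, 30.9% higher, against 2028 and 2233, 47.6% higher.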
